A study of Mus musculus with 12 samples.

Results

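Chromatin-associated RNA from mouse embryonic stem cells was examined for 3 of the 22556 genes in the count tables, Rmrp, Rpph1 and Cmss1. The 3 genes were chosen on these data, because their read counts were far higher in the 4 XistDelm6A/T1_11C libraries than in the other 8, so that difference is given as a description and carries no test. All 12 libraries came from iXist-ChrX, a female embryonic stem cell line from a cross of 129S and Cast (Castaneus) mice, in which a TetOn promoter stands in place of the Xist promoter on the 129S allele and the rtTA activator is expressed from the TIGRE locus. Xist is the long non-coding RNA that silences 1 X chromosome in female cells, and doxycycline (Dox) switches on the modified allele.

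Each genotype was measured without Dox and after 24 h of Dox. WT cells, which carry the TetOn promoter and no Xist deletion, gave 1 library per state. XistDelA cells, which lack the A-repeat of Xist, gave 1 library per state from each of 3 clones, C1, 2C2 and C11. XistDelm6A/T1_11C cells, in which CRISPR-mediated recombination removed the 5′ m6A region of Xist, gave replicates 1 and 2 per state from 1 line. With 1 such line, the genotype, the history of the line and any difference in how its libraries were made cannot be told apart. The study's methods give 2 biological replicates of each experiment. For XistDelm6A/T1_11C both are of 1 line, so p-values within it measure the spread between replicates and not between lines.

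The libraries held between 18893447 and 36007145 read pairs counted on genes, with a median of 26552191. Counts covered whole gene spans on the transcribed strand, introns included, and between 44.6 and 47.1% of them could be assigned to a parental genome. Levels are given as RPM, the counts of a gene per 1000000 counts on genes in that library. Xist was at 297 RPM without Dox and 5514 RPM with Dox in WT, at between 124 and 158 RPM without Dox and between 1267 and 1600 RPM with Dox in the XistDelA clones, and at 100.1 and 85.6 RPM without Dox and 3140 and 4576 RPM with Dox in XistDelm6A/T1_11C, so every library with Dox was above every library without it. Counts over the whole Xist span do not show the deletions.

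Rmrp encodes the RNA of RNase MRP, a nucleolar ribonucleoprotein that cleaves the precursor of ribosomal RNA, and mutations in its human counterpart cause cartilage-hair hypoplasia. Rpph1 encodes the RNA of RNase P, the related enzyme that removes the 5′ leader of precursor tRNAs. Both RNAs are short, end without a poly(A) tail, are transcribed by RNA polymerase III and are bound by a largely shared set of proteins. Cmss1 is a protein-coding gene, the counterpart of yeast Cms1, whose product is linked to the small ribosomal subunit, and it is transcribed by RNA polymerase II.

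The XistDelm6A/T1_11C libraries stood apart for many genes besides these. Of 15530 genes that passed a count filter, 2469 (15.9%) had RPM values in all 4 of these libraries above all 8 others, and 1700 (10.9%) had values below all 8 others. In edgeR's quasi-likelihood test of XistDelm6A/T1_11C against the other libraries, 26.8% of these genes were higher and 23.6% lower at an adjusted p under 0.05, so that calls were common among all genes. The test takes the 12 libraries as independent, although those of 1 line or clone share their source. With only the libraries without Dox, 17.2% were higher and 16.1% lower, and with only those with Dox 9.70 and 7.90%. Against WT alone 6.68% were higher and 6.51% lower. These fits had fewer libraries, so the shares depend on the libraries used.

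Chromatin-retained RNAs, a list of 6 genes led by Malat1, summed to between 12982 and 17023 RPM in the 4 libraries and to between 10011 and 15044 RPM in the other 8, with an overlap that came from WT with Dox alone, where Xist is part of the sum. Without Xist, which was left out after the values were seen, the sums were between 12231 and 16922 RPM against between 9361 and 10848 RPM and did not overlap. Malat1 alone was at between 9406 and 12500 RPM against between 6935 and 8497 RPM. Abundant cytoplasmic mRNAs, a list of 105 genes led by Eef1a1, summed to between 7842 and 12111 RPM against between 10942 and 13944 RPM, with overlap, and of the 97 tested 46 were lower and 5 higher, beside the shares over all genes above. Of the 6 genes of the first list 3 were called higher and none lower by edgeR, and 3 higher and 1 lower by DESeq2, so its sum, most of which is Malat1, does not stand for each gene. The part of such differences between fractions in the levels of Rmrp, Rpph1 and Cmss1 was not tested.

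Markers of embryonic stem cells were present in every library. The list of 10 genes, led by Zfp42, summed to between 1639 and 2452 RPM in the XistDelm6A/T1_11C libraries and to between 2075 and 2369 RPM in the others. Sox2 was at 0 in all 12 libraries, where its span lies within that of Sox2ot on the same strand and reads shared by 2 genes were not counted. Markers of feeder fibroblasts, on which the cells were grown before plating without feeders, were low. The list of 12 genes, led by Fbn1, summed to between 33.9 and 49.3 RPM in the 4 libraries against between 64.7 and 77.3 RPM in the others. Fbn1 alone, at between 25.2 and 32.6 RPM against between 38.1 and 55.7 RPM, was most of each sum. The sum thus does not stand for each gene. Lum was at 0 in all 4 XistDelm6A/T1_11C libraries and in 6 of the 8 others. In bulk RNA a smaller number of cells of one type and less RNA per cell cannot be told apart.

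In the count tables, on mm10, Rmrp lies at chr4:43492784-43493059 on the minus strand (276 nt) and Rpph1 at chr14:50807446-50807771 on the minus strand (326 nt). GENCODE M21 has a single-exon entry of the type ribozyme for each, ENSMUSG00000088088.1 for Rmrp and ENSMUSG00000092837.1 for Rpph1. It has a second entry of the name Rmrp on the same strand, ENSMUSG00000115420.1 of the type lincRNA (chr4:43492783-43493063, 281 nt). The spans counted differ from all of these by a few nt at their ends. The RNAs are printed because they show what was counted, a GC-rich RNA shorter than most gene spans by orders of magnitude. The GC content was 64.2% for Rmrp-201 (chr4:43492788-43493058, minus strand, 271 nt) and 67.1% for Rpph1-201 (chr14:50807449-50807767, minus strand, 319 nt). Capitals mark the longest stretches the 2 RNAs share, 2 of 9 nt each. One spans nt 183 to 191 of the first and nt 17 to 25 of the second, and the other nt 221 to 229 of the first and nt 246 to 254 of the second. Rpph1 is shown from nt 17 to nt 316 (chr14:50807452-50807751).
Rmrp-201: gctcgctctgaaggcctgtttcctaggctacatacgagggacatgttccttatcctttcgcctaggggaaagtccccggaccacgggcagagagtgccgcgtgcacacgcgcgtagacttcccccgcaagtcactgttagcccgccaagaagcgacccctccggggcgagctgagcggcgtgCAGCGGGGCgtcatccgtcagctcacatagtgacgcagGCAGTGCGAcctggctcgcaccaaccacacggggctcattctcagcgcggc
Rpph1-201: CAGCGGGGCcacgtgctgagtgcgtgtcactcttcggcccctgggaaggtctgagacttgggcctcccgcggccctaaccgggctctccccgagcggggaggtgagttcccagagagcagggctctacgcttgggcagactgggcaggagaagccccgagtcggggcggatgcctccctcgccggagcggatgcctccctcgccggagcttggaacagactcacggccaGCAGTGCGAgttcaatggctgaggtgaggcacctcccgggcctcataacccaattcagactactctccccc
Exact stretches of 9 nt are short beside RNAs of this length. How reads of one align to the other was not tested.

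Cmss1 lies at chr16:57301999-57606867 on the minus strand, a span of 304869 nt. Its longest transcript in GENCODE M21, Cmss1-201 of ENSMUSG00000022748.8, has 10 exons and 1150 nt, so nearly all of the span counted is intron. The members are on separate chromosomes.

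Rmrp was high in all 4 XistDelm6A/T1_11C libraries. Without Dox it was at 4056 RPM in replicate 1 and 6202 RPM in replicate 2, and with Dox at 7098 and 7638 RPM. WT had 582 RPM without Dox and 777 RPM with Dox. Among the XistDelA clones Rmrp was at 666 RPM without Dox and 498 RPM with Dox in C1, at 918 and 913 RPM in 2C2, and at 874 and 718 RPM in C11. The lowest XistDelm6A/T1_11C library was thus 4.42 times the highest of the others, and on the log2(RPM + 0.5) scale the means of the sets differed by 3.06, or 8.34-fold. Counting error was small beside these gaps: the 95% Wilson interval, which covers counting error only, ran from 573 to 592 RPM for WT without Dox and from 4029 to 4083 RPM for XistDelm6A/T1_11C replicate 1 without Dox.

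Rpph1 was also high in all 4, but less evenly. In XistDelm6A/T1_11C it was at 2263 RPM without Dox and 6506 RPM with Dox in replicate 1, and at 2320 and 1902 RPM in replicate 2. WT had 272 RPM without Dox and 315 RPM with Dox. In XistDelA it was at 292 and 216 RPM without and with Dox in C1, at 220 and 461 RPM in 2C2, and at 414 and 364 RPM in C11. A single library, replicate 1 with Dox, was far above the other 3 of its line, which lay within 1902 to 2320 RPM. Even so the lowest of the 4 was 4.13 times the highest of the other 8. The log2 difference between the sets was 3.20 (9.18-fold), and without replicate 1 with Dox it was 2.80.

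Cmss1 varied least among the 8 other libraries. In XistDelm6A/T1_11C it was at 2924 RPM without Dox and 3627 RPM with Dox in replicate 1, and at 6177 and 3778 RPM in replicate 2. WT had 677 RPM without Dox and 733 RPM with Dox. In XistDelA it was at 694 and 693 RPM without and with Dox in C1, at 544 and 611 RPM in 2C2, and at 662 and 624 RPM in C11. The sets did not overlap here either, with the lowest XistDelm6A/T1_11C library at 3.99 times the highest of the others and a log2 difference of 2.60 (6.08-fold). The library highest for Cmss1, replicate 2 without Dox, was not the one highest for Rmrp or for Rpph1.

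**Figure D1:**
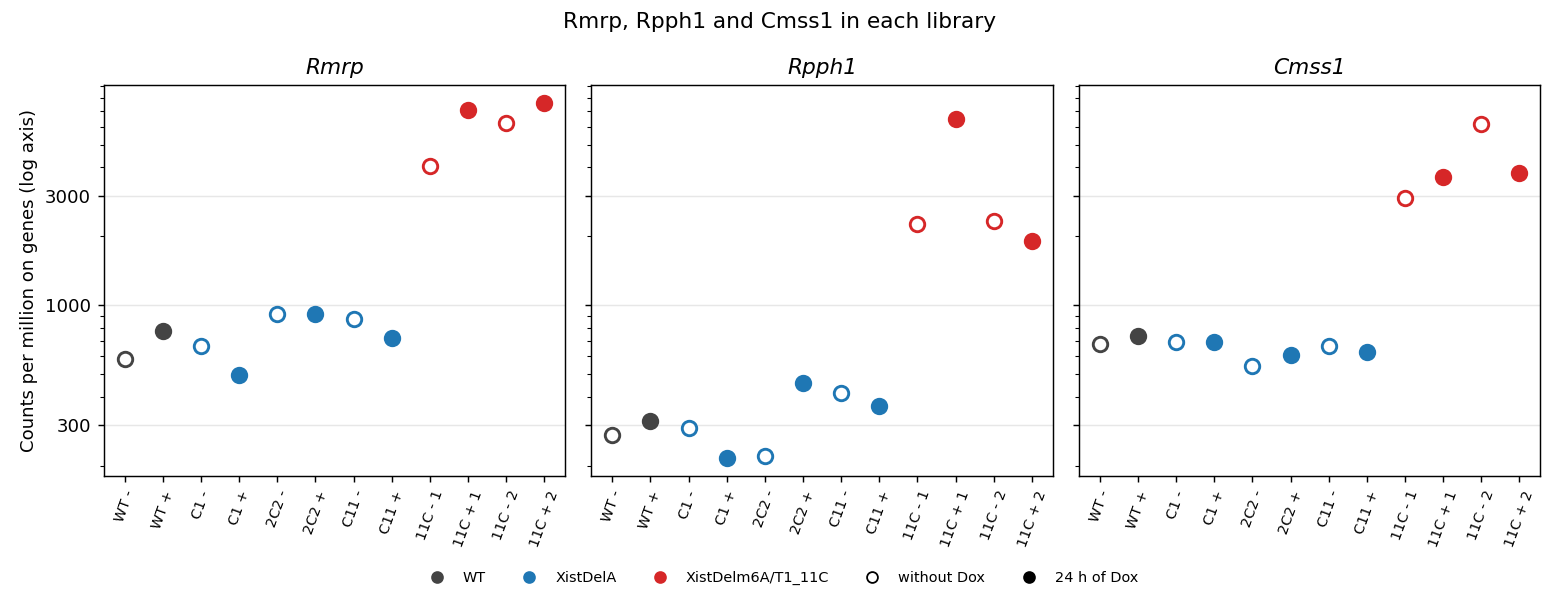
Counts per 1000000 on genes (log axis) of Rmrp, Rpph1 and Cmss1, 1 point per library, open without Dox (-) and filled after 24 h of Dox (+), coloured by genotype, with 11C for XistDelm6A/T1_11C. The 4 XistDelm6A/T1_11C libraries lay between 4056 and 7638 for Rmrp, between 1902 and 6506 for Rpph1 and between 2924 and 6177 for Cmss1, above the other 8 in each panel, as the choice of the genes implies.

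The high level was present in both Dox states. In order of mean RPM, Rmrp ran from WT without Dox (582), XistDelA with Dox (710 ± 208, SD, n = 3), WT with Dox (777) and XistDelA without Dox (819 ± 135, n = 3) to XistDelm6A/T1_11C without Dox (5129 ± 1518, n = 2) and with Dox (7368 ± 382, n = 2). The first 4 of these lay within 1 SD of their neighbours in the order. For Rpph1 the order was WT without Dox (272), XistDelA without Dox (309 ± 98.2), WT with Dox (315), XistDelA with Dox (347 ± 123), XistDelm6A/T1_11C without Dox (2291 ± 40.8) and with Dox (4204 ± 3256), and the first 4 were within 1 SD of their neighbours. The last 2 differed by many times the SD without Dox and by less than the SD with Dox, which comes from the single high library of replicate 1. Cmss1 was at 634 ± 79.1 RPM in XistDelA without Dox, 643 ± 44.4 RPM in XistDelA with Dox, 677 in WT without Dox, 733 in WT with Dox, 3703 ± 107 in XistDelm6A/T1_11C with Dox and 4550 ± 2300 in XistDelm6A/T1_11C without Dox. The WT values are single libraries with no spread of their own. The 2 states of XistDelm6A/T1_11C stood in the opposite order to Rmrp and Rpph1, with overlapping values.

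Together the 3 genes took between 0.141 and 0.199% of all counts in the 8 other libraries and between 0.924 and 1.72% in the XistDelm6A/T1_11C libraries. On this absolute scale Rmrp had the largest difference in mean RPM between the sets of all genes that passed the filter (5506 RPM), followed by Cmss1 (3472 RPM), Malat1 (2976 RPM) and Rpph1 (2928 RPM). The Rpph1 value leans on replicate 1 with Dox and was 1842 RPM without that library. Without replicate 2 without Dox, Cmss1 was at 2788 RPM, below Malat1 (3117 RPM) and Rpph1 (3237 RPM), so the order after Rmrp rests on single libraries. The 3 members made up 8.62% of the summed difference over the genes with a higher mean in XistDelm6A/T1_11C.

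Per length of gene span the 3 were on very different scales. Rmrp was at between 1803 and 3325 RPM per kb in the 8 other libraries and at between 14696 and 27674 RPM per kb in XistDelm6A/T1_11C. Rpph1 followed at between 662 and 1414 RPM per kb against between 5833 and 19958 RPM per kb. Cmss1, averaged over its long span, was at between 1.78 and 2.4 RPM per kb against between 9.59 and 20.3 RPM per kb. These are levels of span coverage and do not say where within Cmss1 its reads fell, because the tables hold 1 count per gene.

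The 3 genes did not move in a fixed proportion from library to library. The ratio of the Rmrp to the Rpph1 count was between 1.97 and 2.47 in 7 of the 8 other libraries and 4.17 in XistDelA 2C2 without Dox. In XistDelm6A/T1_11C it was 1.79 and 1.09 without and with Dox in replicate 1, and 2.67 and 4.02 in replicate 2, so values both below and above that range occurred. The ratio of Rmrp to Cmss1 counts ran from 0.718 to 1.69 in the 8 other libraries and from 1.00 to 2.02 in XistDelm6A/T1_11C, with overlap.

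The parental genome of the reads separated Cmss1 from Rmrp. Genome 2 in the tables was taken as 129S, because between 98.2 and 99.9% of allelic Xist counts fell there. In the 8 other libraries between 45.5 and 54.2% of the allelic Cmss1 counts were from Castaneus, close to an even split. In XistDelm6A/T1_11C the Castaneus share was 88.2% without Dox and 89.3% with Dox in replicate 1, and 94.4 and 91.7% in replicate 2. The Wilson interval for the lowest of these 4 began at 87.9%, from 48744 allelic counts. The sets did not overlap, and this split had not been used to choose the genes, although it comes from the same libraries and shares its reads with the level.

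In RPM, Castaneus counts of Cmss1 were at 1995 and 2486 without and with Dox in replicate 1 of XistDelm6A/T1_11C, and at 5174 and 2854 in replicate 2, against between 129 and 201 in the 8 other libraries. The 129S counts were at between 259 and 306 RPM against between 153 and 193 RPM. Both genomes were therefore above the range of the other libraries, and the means of the sets differed by 4.08 on the log2 scale for Castaneus and by 0.65 for 129S. Counts assigned to neither genome were at between 662 and 844 RPM against between 262 and 339 RPM, a log2 difference of 1.25. Of the Cmss1 level above the mean of the other libraries, between 77.8 and 90.5% was assigned to Castaneus, between 2.29 and 3.95% to 129S and between 7.16 and 18.3% to neither.

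Among the 9986 genes with at least 30 allelic counts in every library, Cmss1 had the largest difference in mean Castaneus share in favour of XistDelm6A/T1_11C, 41.9 percentage points. The next were Hist1h2bc with 30.2 points, Xlr3c with 28.1, Gpc5 with 26.9 and Col5a2 with 26.0. The median change was 0.189 points with its sign and 2.3 points in size, and 46 of the 9986 moved by over 20 points in either direction. Over the 322 genes of chromosome 16 among them, the median Castaneus share was between 47.4 and 48.2% in XistDelm6A/T1_11C and between 47.2 and 48.0% in the others.

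Rmrp was close to an even split in every library, with a small excess of Castaneus for which the Wilson interval lay above an even split in all 12. Its Castaneus share was between 51.4 and 52.5% in XistDelm6A/T1_11C and between 52.4 and 53.5% in the others, and Castaneus and 129S counts alone differed between the sets by 2.50 and 2.54 on the log2 scale. What differed was the part that could be assigned at all. In the 8 other libraries between 73.1 and 85.9% of Rmrp counts were allelic, with a mean of 78.1%. In XistDelm6A/T1_11C the share was 57.0 and 57.7% in replicate 1 and 43.6 and 57.4% in replicate 2, without and with Dox, below all of the others. Counts assigned to neither genome accordingly differed most, by 4.15 on the log2 scale, and made up between 44.7 and 61.1% of the Rmrp level above the mean of the other libraries. Over all genes the share of allelic counts in XistDelm6A/T1_11C, between 44.9 and 45.8%, lay within the range of the other libraries.

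For Rpph1 the parental genome could not be read. Its allelic counts were between 0 and 7 in the 8 other libraries and between 7 and 33 in XistDelm6A/T1_11C, out of at least 5053 counts in each library.

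**Figure D2:**
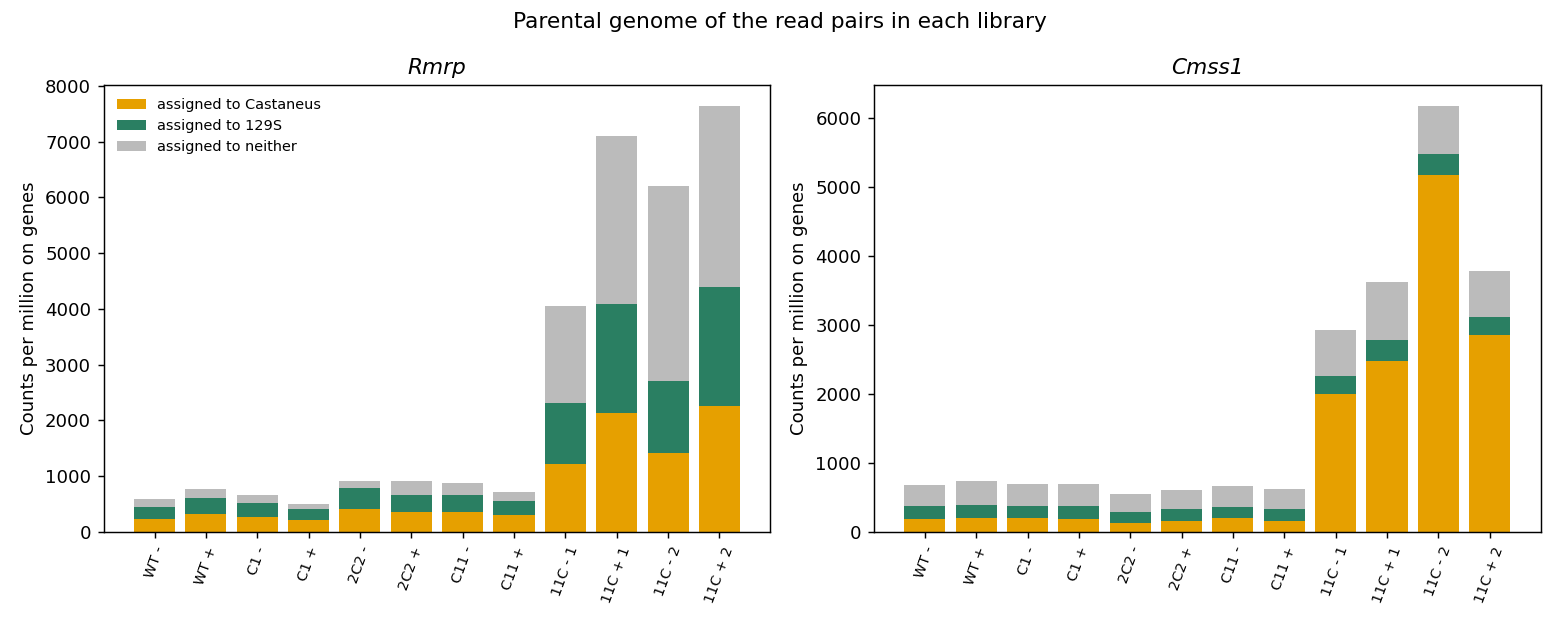
Counts per 1000000 on genes of Rmrp and Cmss1 in each library (- without Dox, + after 24 h of Dox, 11C for XistDelm6A/T1_11C), stacked by read pairs assigned to Castaneus, to 129S and to neither. In the 4 XistDelm6A/T1_11C libraries between 88.2 and 94.4% of the allelic Cmss1 counts were from Castaneus, and between 51.4 and 52.5% of those of Rmrp.

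A gene on the other strand within Cmss1 showed a related pattern. Filip1l lies at chr16:57353276-57572804 on the plus strand, inside the Cmss1 span, and the counting used the strand. It was at 32.5 and 45.6 RPM without and with Dox in XistDelm6A/T1_11C replicate 1, and at 42.8 and 542 RPM in replicate 2. In the 8 other libraries it was at between 5.86 and 11.1 RPM in 7, and at 38.8 RPM in XistDelA C11 with Dox, so that the sets overlapped by this 1 library. The Castaneus share of Filip1l was 90.4, 94.3, 89.7 and 99.1% in the 4 XistDelm6A/T1_11C libraries, in the same order, and 96.4% in XistDelA C11 with Dox. In the remaining 7 it was between 62.4 and 80.2%, from between 60 and 133 allelic counts.

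Filip1l and Cmss1 did not peak in the same library. Filip1l was highest in replicate 2 with Dox, where Cmss1 was at 3778 RPM, and Cmss1 was highest in replicate 2 without Dox, where Filip1l was at 42.8 RPM. In XistDelA C11 with Dox, where Filip1l was high, Cmss1 was at 624 RPM with a Castaneus share of 45.5%. In the same edgeR test of XistDelm6A/T1_11C against the other libraries, Filip1l had a log2 fold change of 3.33 ± 0.63 (SE) and an adjusted p of 0.000653. This size rests largely on 1 library. The difference between the sets in mean log2(RPM + 0.5) fell from 2.88 to 1.94 without replicate 2 with Dox. Without both libraries of replicate 2 edgeR gave 1.56 ± 0.47 (adjusted p = 0.0156). Filip1l had 207 counts beside 18289 of Cmss1 in WT without Dox, and 700 beside 63018 in XistDelm6A/T1_11C replicate 1 without Dox. It had 1066 beside 17128 in XistDelA C11 with Dox, and 11427 beside 79637 in XistDelm6A/T1_11C replicate 2 with Dox. Whether Cmss1 reads contributed to the Filip1l counts was not tested. Since Filip1l overlaps a member chosen on this contrast, its call is no independent support.

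The effect of Dox was a contrast that the choice of the genes did not use. In the XistDelA clones none of the 3 genes passed. Rmrp had a log2 fold change with Dox of -0.24 ± 0.22 (edgeR adjusted p = 0.678, 3 clones), and by clone it was -0.42 (C1), -0.01 (2C2) and -0.28 (C11). Rpph1 had 0.14 ± 0.30 (edgeR adjusted p = 0.871), with -0.44, 1.06 and -0.19, so that clone 2C2 went against the other clones. Without clone 2C2 the estimate for Rpph1 was -0.30. Cmss1 had -0.01 ± 0.10 (edgeR adjusted p = 0.988), and no clone moved by more than 0.17.

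Over all 14866 genes tested in this comparison edgeR called 3 (0.0202%), Xist, Rapgef4 and Cdh3, at an adjusted p under 0.05, with 2162 at an unadjusted p under 0.05, and DESeq2 called 421. Samples of the same clone were alike, and with the clone as a replicate block edgeR called 4410 genes, of which 2211 were lower with Dox (14.9% of those tested). In this paired fit Rmrp fell by 0.26 (log2 fold change -0.26 ± 0.05, edgeR adjusted p = 0.000277), as 1 of many genes called in that direction. It was lower in 3 of 3 clones, though by only -0.01 in 2C2 against -0.42 in C1. The SE rests in part on a spread shared among genes and does not measure the spread between these clones alone. Rpph1 and Cmss1 were not called in this paired fit, with edgeR adjusted p = 0.544 and 0.988.

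In XistDelm6A/T1_11C Dox changed none of the 3 past the threshold. Rmrp was higher with Dox in both replicates, by 0.81 and 0.30 on the log2 scale, and the fitted change was 0.52 ± 0.38. Rpph1 was higher by 1.52 in replicate 1 and lower in replicate 2 (-0.29), with a fitted change of 0.81 ± 0.51, which without replicate 1 was -0.20. Cmss1 differed by 0.31 in replicate 1 and -0.71 in replicate 2, with a fitted change of -0.31 ± 0.44, which without replicate 2 was 0.23. The edgeR adjusted p was 1.00 for each. Of the 15140 genes tested edgeR called 0 (0%), with 173 at an unadjusted p under 0.05, and DESeq2 called 3, and these p-values do not show that the levels were equal.

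The WT pair, with 1 library per state and no replicate check, was higher with Dox by 0.42 for Rmrp, 0.21 for Rpph1 and 0.11 for Cmss1.

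**Figure D3:**
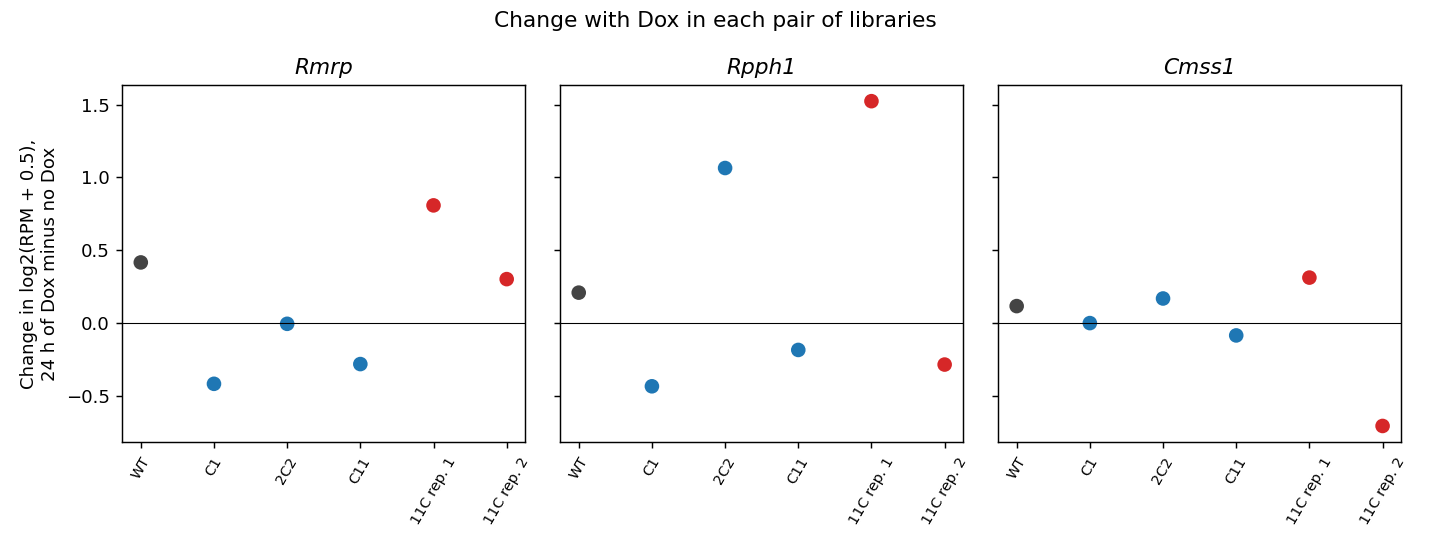
Change in log2(RPM + 0.5) from no Dox to 24 h of Dox for Rmrp, Rpph1 and Cmss1, 1 point per pair of libraries (WT in grey, XistDelA clones in blue, XistDelm6A/T1_11C replicates in red). Rmrp lay between -0.42 and -0.01 in the 3 XistDelA clones and at 0.81 and 0.30 in the XistDelm6A/T1_11C replicates, while Rpph1 and Cmss1 had both signs within each of these lines.

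Whether the response to Dox differed between XistDelm6A/T1_11C and XistDelA was tested as an interaction. Rmrp had the opposite direction in the 2 lines, and the difference of its log2 changes was 0.77 ± 0.42 (unadjusted p = 0.0955 and adjusted p = 1.00 by edgeR). Rpph1 differed by 0.67 ± 0.60, which without XistDelm6A/T1_11C replicate 1 was -0.34. Cmss1 differed by -0.29 ± 0.41, which without replicate 2 was 0.24. edgeR called 0 of 15745 genes (0%), with 233 at an unadjusted p under 0.05, and DESeq2 called 2. With clones and replicate numbers as a replicate block edgeR called 117 genes (0.743%), and Rmrp was among them (0.83 ± 0.17, edgeR adjusted p = 0.0393). This SE too rests in part on a spread shared among genes. The replicate numbers of XistDelm6A/T1_11C are not stated to pair its libraries, and with the block on the XistDelA clones alone, a fit added after the data were seen, edgeR called 0 genes, with 352 at an unadjusted p under 0.05, and Rmrp had 0.80 ± 0.35 (unadjusted p = 0.0549).

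Within the 8 libraries where the genes were low, WT was set against XistDelA with Dox as a term. The fit took these libraries as independent, although those of 1 line or clone share their source. Its p-values therefore do not measure the spread between lines. Rmrp was at -0.19 ± 0.23 (edgeR adjusted p = 0.975), Rpph1 at -0.19 ± 0.28 (edgeR adjusted p = 0.977) and Cmss1 at 0.12 ± 0.09 (edgeR adjusted p = 0.959), as log2 fold changes of WT over XistDelA. With 1 clone left out, Rmrp ran from -0.38 to -0.04, Rpph1 from -0.34 to -0.03 and Cmss1 from 0.05 to 0.17. edgeR called 0 of 15278 genes (0%), with 823 at an unadjusted p under 0.05, and DESeq2 called 5.

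Among the 2469 genes with all 4 XistDelm6A/T1_11C libraries above the other 8, Rpph1 ranked 3rd, Rmrp 8th and Cmss1 21st by log2 difference. The first was Terc, the RNA template of telomerase, at between 182 and 322 RPM against between 9.79 and 26.1 RPM, a log2 difference of 3.59. The remaining places in the first 10 were held by histone genes: Hist1h2af (3.31), Hist1h3f (3.19), Hist4h4 (3.17), Hist1h2ac (3.12), Hist1h4m (3.06), Hist1h2ak (3.0) and Hist1h4h (2.98). Hist1h2af had as few as 3 counts in 1 of the other libraries. In the other direction the largest differences were those of Fosb (-3.79), Hhip (-2.59), Nxph1 (-2.35), Soga3 (-2.33) and 9330159F19Rik (-2.30), then Zfp804a, Lpar4, Il1rapl1, Tmed5 and D630045M09Rik.

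Most of the 10 highest-ranked genes were histone genes, and several of these were of at most 500 nt. Of 92 genes of at most 500 nt other than Rmrp and Rpph1, 40 passed the filter with a mean of at least 10 counts in the other 8 libraries alone, and their median log2 difference was 1.89. The median was 0.28 for the 382 genes of 501 to 2000 nt and between 0.05 and 0.15 for the longer classes, and Cmss1, with its long span, was far from the median of its own class (0.15). Of the 40, 34 were histone genes, most of whose mRNAs lack introns and a poly(A) tail. In edgeR's test 30 of the 34 histone genes were higher in XistDelm6A/T1_11C and none lower, with a median log2 fold change of 2.10, beside 26.8% of all 15530 genes higher, 23.6% lower and a median log2 fold change of 0.03. Of the 6 other short genes, Terc among them, 2 were higher and 3 lower, with a median of -0.33. Counts this small are no result about short genes.

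**Figure D4:**
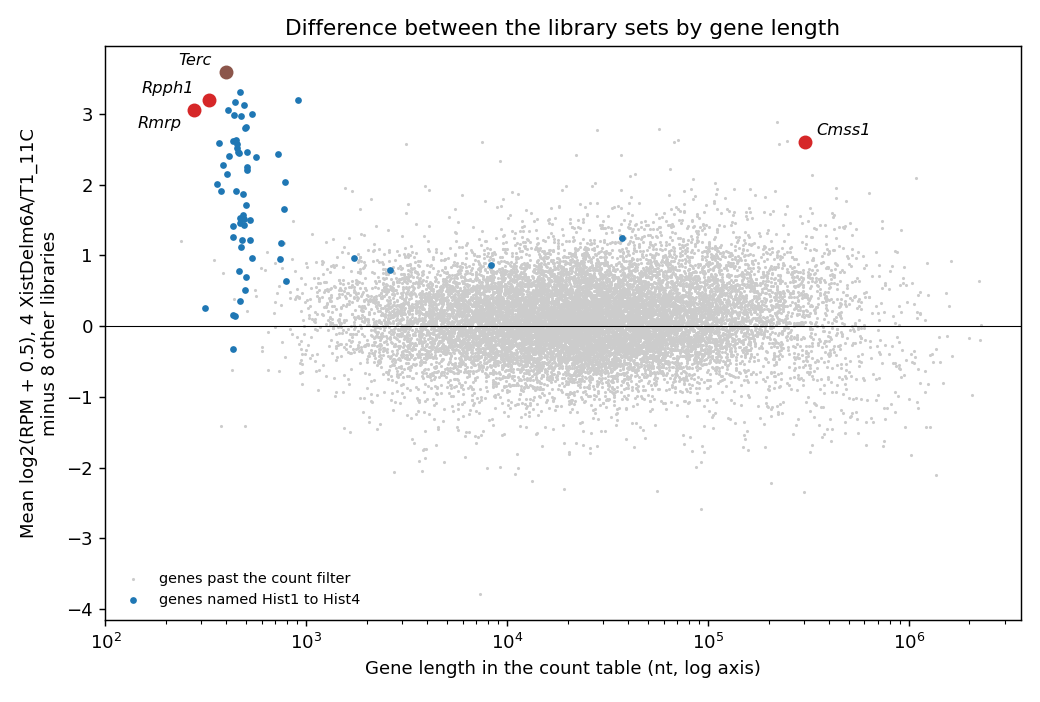
Difference in mean log2(RPM + 0.5) between the 4 XistDelm6A/T1_11C and the 8 other libraries for 15530 genes, against gene length in the count tables (log axis), with Rmrp, Rpph1 and Cmss1 in red, Terc in brown and genes named Hist1 to Hist4 in blue. Rmrp (3.06), Rpph1 (3.20) and Terc (3.59) lie with the short histone genes at the upper left, and Cmss1 (2.60) lies among long genes whose median is 0.15.

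The genes most like each member over the 12 libraries were sought by the root mean square difference of centred log2(RPM + 0.5) profiles. For Rmrp they were Hist1h3f (0.231), Hist2h3b (0.243), Hist1h3e (0.264), Hist1h4m (0.279) and Hist1h4h (0.292), where the median gene was at 1.46. For Rpph1 they were Hist1h4h (0.328), Hist1h3f (0.351), Hist1h3e (0.438), Hist1h4m (0.441) and Hist4h4 (0.452), with a median gene at 1.55. Cmss1 was closest to other histone genes, Hist1h3b (0.210), Hist1h2ae (0.214), Hist1h2ab (0.235), Hist1h4b (0.258) and Hist1h1c (0.261), with a median gene at 1.24. Rmrp was at 0.487 from Rpph1 and 0.450 from Cmss1, and Rpph1 and Cmss1 were at 0.649 from each other, so that each member had several histone genes nearer to it than another member. All of these profiles are dominated by the step between the sets on which the members were chosen.

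Other short non-coding RNA genes were few in these tables. Of 15 listed, 8 were present and 3 passed the filter. Terc was higher in XistDelm6A/T1_11C (log2 fold change 3.51 ± 0.21, edgeR adjusted p = 8.61e-08, higher in 4 of 4 libraries than in any other). Vaultrc5, a vault RNA gene, was at between 0.325 and 0.949 RPM against between 0 and 0.117 RPM, and Rprl3, an RNase P RNA-like gene, at between 0.371 and 1.47 RPM against between 0 and 0.0733 RPM. Both passed the filter only through the libraries where they were high, so these levels are a description and no call is read for them. The related Rprl1 and Rprl2 reached at most 0.139 RPM, and Scarna13, Scarna6 and Snord17 were at 0 in every library.

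Genes for the protein partners of Rmrp and Rpph1 gave few calls in either direction. Of the 11 listed subunits of RNase MRP and RNase P, 1 was higher and 2 were lower in XistDelm6A/T1_11C, beside 26.8 and 23.6% of all genes, with a median log2 fold change of -0.11 beside 0.03. Pop1, the largest subunit, was at between 77.5 and 91.4 RPM against between 130.1 and 159.7 RPM (log2 fold change -0.86 ± 0.08, edgeR adjusted p = 1.69e-06). Pop7 was also lower (-0.51) and Rpp38 was higher (0.36). The other 8 did not pass the threshold. With library totals in place of TMM scaling 2 were higher and 1 lower, beside 30.8 and 18.6% of all genes, and counts this small are no result about the list.

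Genes for RNA polymerase III and its factors were called in both directions, 6 higher and 10 lower of 33, with a median of -0.15. These counts are near the 26.8 and 23.6% over all genes and are no result about the list. Higher ones included Polr3b, the second-largest subunit (0.33), the alternative subunit Polr3gl (0.85) and Snapc4 (0.33), whose product binds the proximal element of promoters such as those of Rmrp and Rpph1. Lower ones included Polr3f (-0.68), Bdp1 (-0.36), Ssb (-0.58), which encodes the La protein that binds the ends of new polymerase III transcripts, and Pou2f1 (-0.49), which encodes the octamer-binding factor Oct-1. Pou2f1 was at between 549 and 721 RPM against between 743 and 993 RPM.

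Of 39 listed genes for the small-subunit processome and pre-rRNA processing, the machinery nearest in function to RNase MRP and to the product of Cmss1, 36 were tested. None was higher in XistDelm6A/T1_11C and 22 were lower in edgeR's test, beside 26.8% higher and 23.6% lower over all genes, with a median of -0.37 beside 0.03. Other lists had medians close to this, -0.35 for the 97 cytoplasmic mRNAs (46 lower, 5 higher) and -0.36 for 9 embryonic stem cell markers (4 lower, 2 higher). A lower median was thus not limited to the processing genes, and differences between lists were not tested. DESeq2 called 26 of the 36 processing genes lower and none higher, beside 25.4% of all genes lower. With library totals in place of TMM scaling edgeR called 1 higher and 19 lower. Nop58 (-0.79), Emg1 (-0.72), Wdr43 (-0.65) and Fbl (-0.57) were among those lower.

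A further list held gene spans known for rRNA-like reads in mouse data, and values are given here for Cdk8, Camk1d and Lars2. Cdk8 was at between 695 and 1049 RPM against between 258 and 310 RPM (log2 fold change 1.59 ± 0.09, edgeR adjusted p = 5.81e-08). Camk1d (1.02) and Lars2 (0.54) were higher too. Values are not given for every gene of this list, so no count is given over it and nothing is read from it as a list. Cdk8 differed from Cmss1 in the genome of its reads. The part of its counts that was allelic was between 16.7 and 20.8% in XistDelm6A/T1_11C against between 42.2 and 47.4%, and its Castaneus share was lower, at between 34.2 and 35.9% against between 45.8 and 49.0%. The allelic part of Cmss1 was larger, between 76.7 and 88.7% against between 51.9 and 55.5%. Whether rRNA-like reads contributed to the counts of Cmss1 was not tested.

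**Figure D5:**
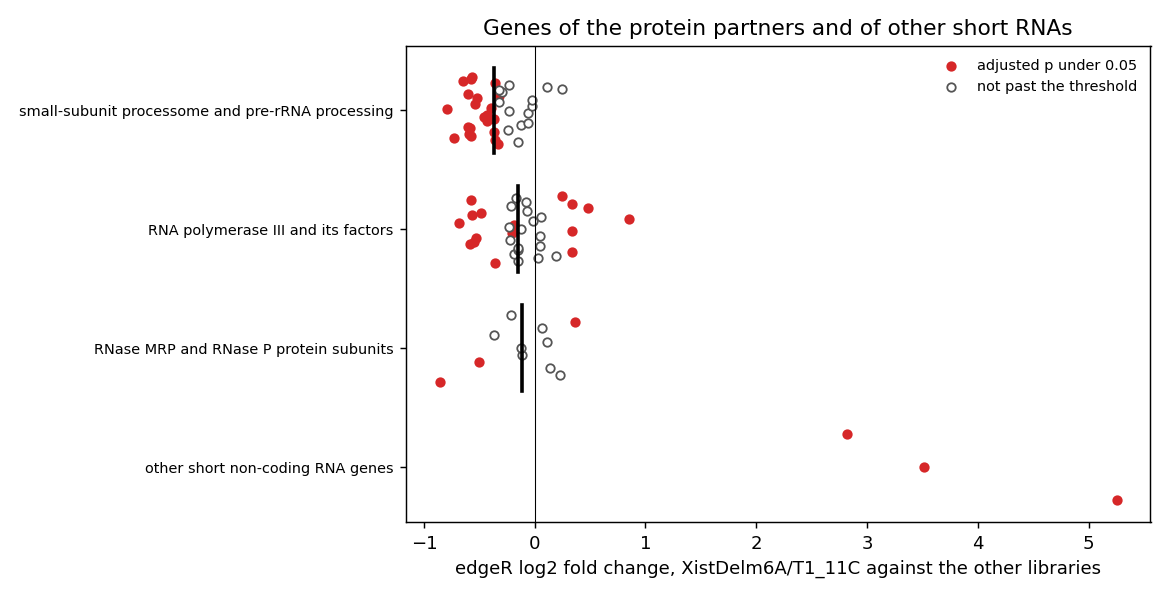
edgeR log2 fold change of XistDelm6A/T1_11C against the other 8 libraries for the tested genes of 4 lists, 1 point per gene, filled where the adjusted p was under 0.05, with the list's median as a bar except for the 3 short RNA genes, of which Vaultrc5 and Rprl3 were near 0 in the other libraries. The medians were -0.11 for the RNase MRP and RNase P proteins, -0.15 for RNA polymerase III and its factors and -0.37 for the pre-rRNA processing genes. The points of Vaultrc5 and Rprl3 carry no test, since both passed the filter only through the XistDelm6A/T1_11C libraries.

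In the unpaired edgeR fits for Dox in either deletion line, for the interaction and for WT against XistDelA, none of the RNase MRP and RNase P proteins, RNA polymerase III factors or pre-rRNA processing genes was called. With the clone as a replicate block the fit for Dox in XistDelA called some of each, beside 14.8% of all genes higher and 14.9% lower. Of the 11 subunits 3 were lower and none higher, of the 33 RNA polymerase III genes 7 were lower and 3 higher, and of the 36 pre-rRNA processing genes 24 were lower and none higher, with a median of -0.23 beside 0.01 over all genes. In the same fit 56 of 97 cytoplasmic mRNAs were lower and 2 higher (median -0.19). Of 9 embryonic stem cell markers 5 were lower and 1 higher (median -0.23), and 12 of the 40 short genes tested there were lower and none higher. Lower calls were thus not limited to the processing genes, and differences between lists were not tested. The replicate block called none of the 3 lists for Dox in XistDelm6A/T1_11C, where 1.57% of all genes were called, or for the interaction, where 0.743% were.

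Of the 19 genes around the members 14 were tested. Rmrp and Ccdc107 lie head to head, 304 nt apart, and Ccdc107 was at between 1.80 and 3.86 RPM in XistDelm6A/T1_11C and between 1.79 and 2.77 RPM in the others (log2 fold change 0.31 ± 0.18, edgeR adjusted p = 0.157). Of the 6 neighbours of Rmrp 3 were tested and none was called by edgeR. Rpph1 and Parp2, a poly(ADP-ribose) polymerase gene, lie head to head 173 nt apart, and Parp2 was lower (-0.25 ± 0.09, edgeR adjusted p = 0.0294). Ccnb1ip1 (-1.57) and Ttc5 (-0.55) on the other side of Rpph1 were lower as well, 3 of 4 tested, beside 23.6% of all genes. Around Cmss1, Filip1l and St3gal6 (1.17) were higher and Col8a1 (-1.34), Tbc1d23 (-0.25) and Nit2 (-0.24) lower, of 7 tested, beside 26.8% of all genes higher and 23.6% lower. With calls this common, these counts are no result about the neighbours.

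Because Rmrp and Rpph1 share the space upstream of them with these neighbours, the RefSeq promoter windows (GRCm38.p6, 300 nt) of Ccdc107 and Parp2 hold sequence upstream of the RNA genes. The Ccdc107 window covers 56 to 355 nt upstream of Rmrp (chr4:43493115-43493414, plus strand). The Parp2 window runs from within Rpph1 to 194 nt upstream of it (chr14:50807666-50807965, plus strand). Promoters of this class are known for an octamer in a distal element, and capitals mark the octamer ATTTGCAT, or ATGCAAAT on the other strand, and the letters TATAAA, searched on both strands.
Ccdc107: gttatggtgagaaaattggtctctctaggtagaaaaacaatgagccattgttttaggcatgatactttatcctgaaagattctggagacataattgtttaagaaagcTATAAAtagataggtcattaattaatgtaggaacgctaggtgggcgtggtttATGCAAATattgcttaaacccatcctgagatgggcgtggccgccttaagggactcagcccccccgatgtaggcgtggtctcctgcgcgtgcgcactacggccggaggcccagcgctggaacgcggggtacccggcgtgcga
Parp2: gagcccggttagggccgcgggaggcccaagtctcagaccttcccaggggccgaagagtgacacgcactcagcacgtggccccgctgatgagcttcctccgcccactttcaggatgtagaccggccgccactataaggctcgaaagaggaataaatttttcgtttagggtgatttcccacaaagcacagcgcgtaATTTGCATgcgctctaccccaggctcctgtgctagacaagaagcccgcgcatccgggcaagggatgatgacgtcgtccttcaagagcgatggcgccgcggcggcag
The octamer lies 215 to 222 nt upstream of Rmrp and 89 to 96 nt upstream of Rpph1. It was found in 570 of 32851 windows of the same length (1.74%). TATAAA lies 163 to 168 nt upstream of Rmrp and is not in the Parp2 window, and 4473 windows (13.6%) held it. Both motifs together were in 117 windows (0.356%). The window of Cmss1 held neither. Sequence closer to Rmrp than 56 nt was not read, so TATAAA there would be missed. Variants of these letters were not searched, so the Parp2 window may hold a similar stretch. A match of letters is a description, not evidence of binding.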

How the data were processed

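ChrRNA-seq libraries were made by the authors with the TruSeq stranded total RNA kit. Per the labels and the study's methods, reads were mapped to mm10 with Bowtie2 2.3.2 and STAR 2.4.2a, assigned to a parental genome, and counted with featureCounts 1.5.2 over gene spans by strand, without pairs that map or belong to several genes. The deposited counts were not normalized. Rows with the names Rmrp, Rpph1 and Cmss1 were taken, and their RPM computed over all genes. Tests used edgeR 4.0.16 in R 4.3.3 (quasi-likelihood, TMM, filterByExpr with a minimum count of 10, Benjamini-Hochberg over all genes, threshold 0.05), checked on simulated data. Python 3.11.15 and scipy 1.17.1 gave intervals. The members and gene lists were chosen with earlier results of these data known. Named genes were the members, fixed lists, the 10 largest differences per direction, the 5 nearest profiles and the 3 nearest genes per side. In the list of spans with rRNA-like reads, 1 gene is not reported here. Alternatives were DESeq2 1.42.0, no TMM, no filter, short genes left out of library sizes, libraries left out, other library sets, 1 fit for all libraries, another pseudocount, single genomes and the replicate block. XistDelA clones pair by cell line, and deviations from the group means correlated at r = 0.678, 0.463 and 0.608 across 14866 genes, which are not independent.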

Additional observations from a re-analysis of the deposited data

Results flagged for a closer look

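Over the 4 XistDelm6A/T1_11C libraries, the Rpph1 level of replicate 1 with Dox (6506 RPM) stood far from the other 3, which were between 1902 and 2320 RPM. Its gap to the nearest library was 0.909 of the whole range. This set of levels was 1 of 10 sets of levels and Castaneus shares examined. It pooled both Dox states, and the genes were chosen on these levels, so the gap is a description and carries no test.

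Rmrp was higher with Dox in both XistDelm6A/T1_11C replicates and lower with Dox in all 3 XistDelA clones, though by only -0.01 in 2C2. The difference in log2 change was 0.77 ± 0.42 (edgeR interaction, adjusted p = 1.00). With clones and replicate numbers as a replicate block it was 0.83 ± 0.17 (edgeR adjusted p = 0.0393), where the SE rests in part on a spread shared among genes. The block on the XistDelA clones alone, added after the data were seen, gave 0.80 ± 0.35 (edgeR unadjusted p = 0.0549). In the WT pair Rmrp was also higher with Dox, by 0.42.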

How the results depend on the processing

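For the tests of the 3 genes over 4 comparisons, 96 of 105 values under alternatives kept their direction and their side of the threshold. The direction turned for 7, none of which passed a threshold. With 1 clone or replicate left out, Rpph1 with Dox in XistDelA ran from -0.30 (without 2C2) to 0.36 and Cmss1 from -0.0567 (without 2C2) to 0.0355 (without C11), and Cmss1 was 0.0205 with library totals without TMM. In XistDelm6A/T1_11C Rpph1 ran from -0.20 (without replicate 1) to 1.45 and Cmss1 from -0.62 to 0.23 (without replicate 2), and the interaction from -0.34 (without XistDelm6A/T1_11C replicate 1) to 1.31 for Rpph1 and from -0.62 to 0.24 (without XistDelm6A/T1_11C replicate 2) for Cmss1. The replicate block brought Rmrp past the threshold for Dox in XistDelA (-0.26) and for the interaction (0.83) and changed no other call of the 3. Beyond the fewer libraries in such fits, the cause was not tested.

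Counts of called genes moved more. For Dox in XistDelA (3 genes) DESeq2 gave 421, the replicate block 4410 and leaving out a clone 0 to 2. For Dox in XistDelm6A/T1_11C (0 genes) DESeq2 gave 3, library totals without TMM 1, no count filter 2, all 12 libraries in 1 fit 2 and leaving out a replicate 1, where the lone sample was assumed to vary like the XistDelA and WT samples. The replicate block gave 237, without the 3 genes. Its replicates share only a number, and their deviations correlated at r = 0.732 across 15140 genes. For the interaction (0 genes) DESeq2 gave 2 and the replicate block 117. For WT against XistDelA (0 genes) DESeq2 gave 5 and no count filter 1. XistDelm6A/T1_11C against the others (7835 genes) gave 2050 against WT alone, 5099 without Dox, 2719 with Dox and 6545 to 8153 with a line, clone or replicate left out.

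The log2 difference between the sets, which the choice of genes fixes in direction, ran from 2.80 to 3.43 for Rpph1. Read pairs of single genomes, tried after the data were seen, gave 2.50 (Castaneus), 2.54 (129S) and 4.15 (neither) for Rmrp, and 4.08, 0.65 and 1.25 for Cmss1. Depth limits Vaultrc5 and Rprl3, each with few counts. Rpph1 by allele is limited at any depth here, since almost none of its counts were allelic.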
